A study of Mus musculus with 20 samples.

Results

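The junction genes described here are 8 mouse genes, 4 that encode connexins of gap junctions (Gja1, Gjb2, Gjb6 and Gjb5) and 4 that encode tight junction proteins (Cldn1, Cldn4, Ocln and Tjp1). They were taken by gene name from the 53380 genes of a table of normalized counts, in which each name occurred once, and every one of the 8 passed the filter on low values. RNA-seq was run on 20 libraries from 5 populations sorted from mouse dorsal epidermis: integrin-α6+Sca1+Thy1hi keratinocytes (Thy1hi, 4 libraries), the same gate with the YFP label (YFP+, 3 libraries), integrin-α6+Sca1+Thy1- keratinocytes (Thy1-, 4 libraries), integrin-α6+Sca1-CD34+ hair follicle stem cells (HFSC, 4 libraries) and integrin-α6-Sca1lowThy1+ dendritic epidermal T cells (DETC, 5 libraries, of which 2 carry no replicate number in the series 1 to 3 and are called DETC a and b). The study's text describes the Thy1hi, Thy1-, HFSC and DETC sorts as coming from wild-type C57BL/6J mice of 8 weeks, and the YFP+ cells as coming from tamoxifen-induced mice carrying a Thy1 promoter-driven CreERT2 with a Rosa26 EYFP reporter. The sample labels instead give the genotype Thy1.2CreERT2-Rosa26-EYFP and no treatment for all 20 samples, and list ages from 8 to 27 weeks that rise by 1 from sample to sample. The YFP+ samples are labelled Sca1- in one field and Sca1+ in their titles. In the YFP+ sort the transgene, the tamoxifen and the label therefore cannot be told apart from one another, and some sorts pooled several mice, so that p-values measure the spread between libraries only.

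Gap junctions are channels between neighbouring cells that pass ions and small molecules, and each channel is built of connexins from both cells. Tight junctions seal the space between cells: claudins and occludin span the membrane, and scaffold proteins such as ZO-1, the product of Tjp1, tie them to the actin skeleton. In the epidermis, connexins are made in the living layers, while the working tight junction barrier lies in the granular layer, below the cornified surface. Gjb2 and Gjb6 are genes whose mutations cause deafness and skin disorders, and Gja1 encodes the most widely made connexin of keratinocytes.

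The libraries held between 7781256 and 12982393 reads on genes, of which the ribosomal transcript Rn45s took 13.1 to 41.5%. The DETC and HFSC sorts carried their defining genes. The 7 T cell genes examined summed to between 19486 and 40345 normalized counts in DETC libraries. In any keratinocyte library they summed to 429 at most. The 7 hair follicle stem cell genes summed to between 7049 and 10942 in HFSC against 3142 at most elsewhere. The DETC libraries also held keratinocyte RNA, with Krt14, a keratin of basal keratinocytes, at 4.41 to 21.9% of its mean in Thy1hi, and the 7 basal keratinocyte genes examined at medians of 5.99 to 27.4% and at most 50.8%. Genes of the upper layers reached higher shares, with the suprabasal keratin gene Krt10 at 24.3 to 184% and the granular gene Flg2 at 39.8 to 366%. These shares are of Thy1hi means that were the lowest of the keratinocyte sorts, which raises them. Krt10 averaged 8021 normalized counts in Thy1hi against 19168 in Thy1-, and Flg2 2881 against 6381. The suprabasal gene Dsg1a stood lower, at 11.0 to 70.6%. HFSC replicate 4 stood apart from the other HFSC libraries, with the lowest share of Rn45s and Langerhans cell genes summing to 143 where the HFSC median was 3176. In bulk libraries such as these, fewer cells of a type and less RNA per cell cannot be told apart.

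Gjb2 and Gjb6 lie on the same strand of chromosome 14 with 18.6 kb between them, Gjb2 at chr14:57098600-57104702 and Gjb6 at chr14:57123303-57133611 (mm10, minus strand). Their promoters are shown because these 2 genes had the most similar pattern of any pair among the 8 over the keratinocyte libraries (r = 0.91). With the population means removed, r was 0.76 for this pair. Ocln with Tjp1 (0.89), Cldn1 with Cldn4 (0.85) and Cldn4 with Ocln (0.80) were then higher. Gja1 lies at chr10:56377330-56402513 on the plus strand and Cldn4 at chr5:134945119-134946934 on the minus strand, and their promoters are shown for comparison. Each line gives the 250 bases before the RefSeq transcription start (GRCm38.p6), 5′ to 3′ on the strand of the gene, at chr14:57104703-57104952 for Gjb2, chr14:57133612-57133861 for Gjb6, chr10:56377050-56377299 for Gja1 and chr5:134946935-134947184 for Cldn4. Capitals mark exact matches, on either strand, to the letters TGACTCA of an AP-1 type motif, to the letters GGGCGG of a GC box or to the letters CAGGTG of an E-box, and no matches overlapped.
Gjb2: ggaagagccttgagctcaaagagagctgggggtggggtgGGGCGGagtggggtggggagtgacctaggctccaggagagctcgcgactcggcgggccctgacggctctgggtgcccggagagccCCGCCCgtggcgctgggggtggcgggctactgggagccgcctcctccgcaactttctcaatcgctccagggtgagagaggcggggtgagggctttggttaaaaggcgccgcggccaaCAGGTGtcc
Gjb6: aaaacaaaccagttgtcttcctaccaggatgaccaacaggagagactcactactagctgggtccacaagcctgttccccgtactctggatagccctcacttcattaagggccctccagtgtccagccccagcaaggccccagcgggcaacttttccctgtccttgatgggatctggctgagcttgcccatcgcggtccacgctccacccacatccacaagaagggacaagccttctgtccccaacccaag
Gja1: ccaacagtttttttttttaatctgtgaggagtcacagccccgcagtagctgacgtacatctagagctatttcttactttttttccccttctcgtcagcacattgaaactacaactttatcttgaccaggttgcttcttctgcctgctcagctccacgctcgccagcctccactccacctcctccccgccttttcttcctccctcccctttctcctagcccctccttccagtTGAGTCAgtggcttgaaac
Cldn4: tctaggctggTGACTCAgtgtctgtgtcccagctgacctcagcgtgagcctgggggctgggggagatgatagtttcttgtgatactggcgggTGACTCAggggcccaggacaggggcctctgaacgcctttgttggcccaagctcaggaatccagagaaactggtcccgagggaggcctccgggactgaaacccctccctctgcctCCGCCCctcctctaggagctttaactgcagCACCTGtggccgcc

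Gjb2 had 2 GC boxes and 1 E-box, whereas the window of Gjb6 held no match to any of the 3 motifs. The AP-1 type letters were found at -19 from the start in Gja1 and at -240 and -158 in Cldn4, and in no window of the other members. Among 32817 promoter windows of the same length, 4.46% held the AP-1 type motif, 32.7% a GC box and 17.2% an E-box. A match is a description of the letters only. GC content was 69.2% in the Gjb2 window, 56.8% in Gjb6, 50% in Gja1 and 62.0% in Cldn4.

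Gja1 was the connexin with the highest level per length in the Thy1hi libraries, at 308 normalized counts per kb of annotated exon, against 45.4 for Gjb2, 31.4 for Gjb5 and 5.19 for Gjb6. The exon length of Gja1 (10257 bases) adds up all annotated transcripts, which lowers its value. On the scale of normalized counts, Gja1 stood at 3104, 3776, 3239 and 2509 in Thy1hi replicates 1 to 4 and at 3307, 2559.8 and 4285 in the YFP+ libraries. It stood at 2796, 1191, 1526 and 994 in Thy1-, at 1191, 2169, 1081 and 658 in HFSC, and at 602, 990.5, 582, 257 and 747 in DETC 1, 2, 3, a and b. The Thy1hi and YFP+ libraries overlapped, with YFP+ replicate 3 above every Thy1hi library, all 7 lay above every HFSC and DETC library, and only Thy1- replicate 1 reached into the Thy1hi range.

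**Figure D1:**
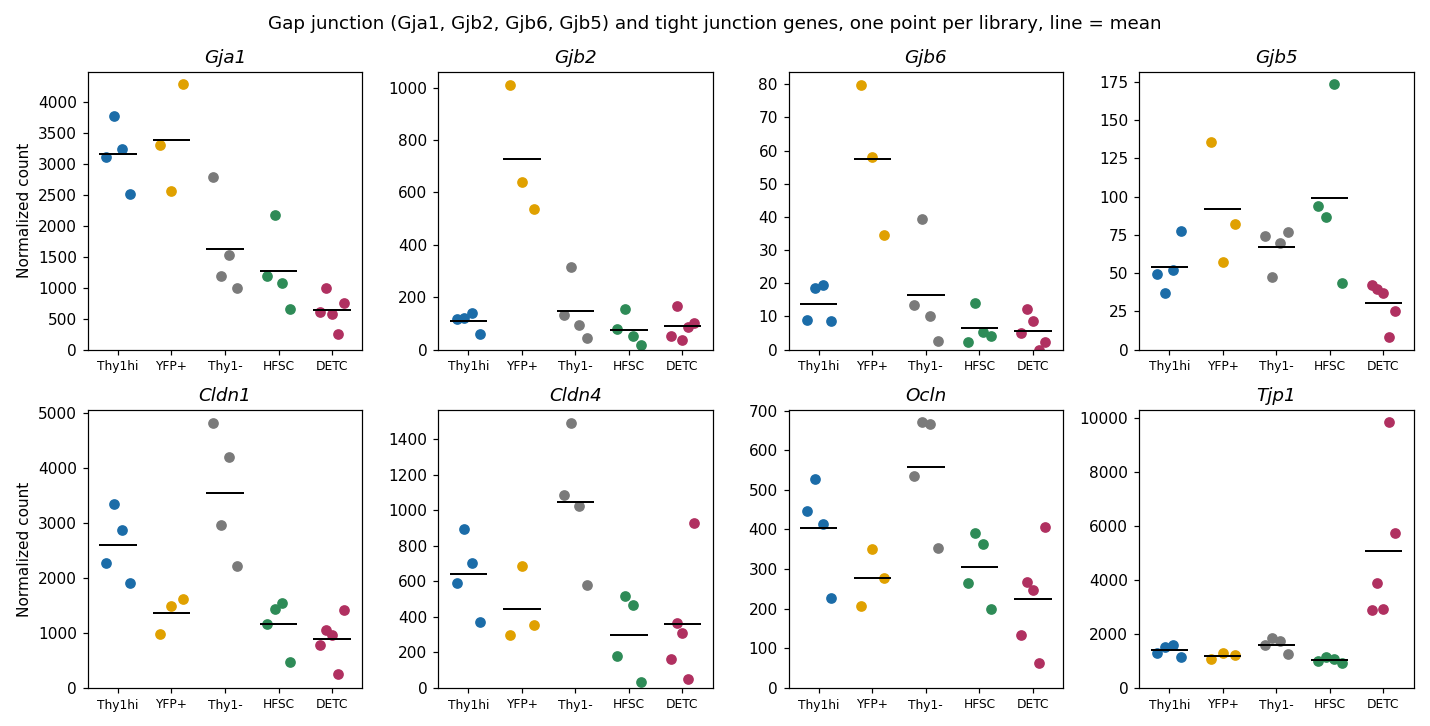
Normalized count (linear axes from 0) of the 8 junction genes in the 5 sorted populations. Each point is a library and each black line a population mean. Gjb2 stands highest in the 3 YFP+ libraries and Gjb6 has its highest mean there, Cldn1, Cldn4 and Ocln have their highest mean in Thy1-, and Tjp1 lies between 2879.5 and 9854 in DETC against 1856 at most elsewhere.

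The 3 beta connexins were lower than Gja1 and differed in pattern. Gjb2 measured 1011, 639 and 535 normalized counts in the YFP+ libraries, against 116, 121, 139 and 61.1 in Thy1hi and 131, 314, 93.1 and 44.3 in Thy1-. In HFSC it was 79.7, 153, 51.3 and 17.5, and in DETC 52.8, 165, 36.4, 87.8 and 101. All 3 YFP+ libraries therefore lay above all 17 others, and the 4 other populations overlapped one another.

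Gjb6 encodes a connexin that can share channels with the product of Gjb2. Its reads were few, at 35 to 80 in the YFP+ libraries and 34 at most in any other. In normalized counts it measured 79.7, 58.1 and 34.7 in YFP+, 8.83, 18.4, 19.5 and 8.73 in Thy1hi, and 13.4, 39.3, 10.2 and 2.46 in Thy1-. In HFSC it stood at 2.31, 14.1, 5.35 and 4.2 and in DETC at 4.89, 12.2, 8.70, 0 and 2.40, where the 0 of DETC a allows up to 3 reads. The lowest YFP+ library was below Thy1- replicate 2, the same library that had the highest Gjb2 outside YFP+, and above every other library of the other 4 populations.

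Gjb5, which encodes another beta connexin, lies at chr4:127354809-127358181 on the minus strand. Its normalized counts were 93.5, 86.9, 173 and 43.4 in HFSC, 136, 57.3 and 82.2 in YFP+, 74.2, 47.4, 69.4 and 77.0 in Thy1-, and 49.7, 36.9, 52.0 and 77.6 in Thy1hi. In DETC they were 42.1, 39.7, 37.2, 8.23 and 25.2, below every HFSC, Thy1- and YFP+ library. Among the keratinocyte populations the libraries overlapped.

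Gja3, a connexin gene 40.5 kb from Gjb2 on the side away from Gjb6, never passed 6 reads in a library and was not tested.

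Cldn1 encodes the claudin without which the epidermal barrier fails in mice, and lies at chr16:26356642-26371841 on the minus strand. It was the member with the highest level per length in Thy1-, at 733 normalized counts per kb, and in Thy1hi, at 536. Its normalized counts were 4819.6, 2959.7, 4197 and 2217 in Thy1-, 2259.8, 3348, 2869 and 1907 in Thy1hi, and 979.9, 1484 and 1610.0 in YFP+. In HFSC they were 1166, 1429, 1542 and 477, and in DETC 779, 1047, 956, 259 and 1423. Every Thy1- and Thy1hi library lay above every library of YFP+, HFSC and DETC.

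Cldn4, a claudin of the upper epidermal layers, spread more widely within each population. It measured 1086, 1493, 1024 and 579 in Thy1-, 588, 896, 702 and 373 in Thy1hi, and 298, 684 and 353 in YFP+. It measured 181, 519, 466 and 33.6 in HFSC and 162, 363, 309, 50.8 and 927 in DETC, so that DETC b stood above all 4 Thy1hi libraries and DETC a below all but 1 of the other libraries. Cldn3, on the other side of a 39.3 kb gap from Cldn4, was at 24 reads or fewer in every library.

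Ocln, which encodes occludin, lies at chr13:100496507-100552718 on the minus strand. Its normalized counts were 536, 671, 667 and 353 in Thy1-, 446, 527, 414 and 226 in Thy1hi, 265, 389.9, 362 and 198 in HFSC, and 206, 351 and 277 in YFP+. In DETC they were 133, 268, 248, 61.7 and 407. Only the YFP+ and Thy1- libraries did not overlap, all 3 YFP+ libraries being lower.

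Tjp1 lies at chr7:65296165-65527781 on the minus strand. It was the member with the smallest SD relative to its mean in each of the 4 keratinocyte sorts and the only one with its highest mean in DETC. It measured 1306, 1531, 1605 and 1132 in Thy1hi, 1062, 1287 and 1205 in YFP+, 1574, 1856, 1727 and 1259.9 in Thy1-, and 977, 1143, 1085 and 933 in HFSC. The DETC libraries stood at 2879.5, 3882, 2940.1, 9854 and 5755, all above every library of the other sorts.

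The populations fell in these orders by mean level. Gja1 fell from YFP+ through Thy1hi, Thy1- and HFSC to DETC, and Gjb2 from YFP+ through Thy1-, Thy1hi and DETC to HFSC. Gjb6 ran from YFP+ through Thy1-, Thy1hi and HFSC to DETC, and Gjb5 from HFSC through YFP+, Thy1- and Thy1hi to DETC. The order was Thy1-, Thy1hi, YFP+, HFSC and DETC for Cldn1, Thy1-, Thy1hi, YFP+, DETC and HFSC for Cldn4, and Thy1-, Thy1hi, HFSC, YFP+ and DETC for Ocln. Tjp1 fell from DETC through Thy1-, Thy1hi and YFP+ to HFSC. Of the 32 pairs of neighbours in the 8 orders, 2 passed the test in the fit across all genes (limma, adjusted p under 0.05): Gja1 between HFSC and DETC (adjusted p = 0.0310) and Tjp1 between DETC and Thy1- (adjusted p = 0.000154). The other 30 did not differ beyond their spread by that test. Of these, Gja1, Cldn4 and Ocln between Thy1hi and Thy1- passed in a limma fit that took the replicate numbers into account (adjusted p = 0.0114, 0.00320 and 0.0304). Between HFSC and DETC, Cldn1 and Cldn4 passed in such a fit of fewer libraries (adjusted p = 0.00224 and 0.0370). Cldn4 was there higher in HFSC (log2 fold change 0.42), the reverse of its order above.

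The first comparison asks how Thy1hi keratinocytes differ from Thy1- keratinocytes sorted with the same integrin-α6+Sca1+ gate. Gja1 was higher in the Thy1hi library of all 4 replicate pairs, and Cldn4, Ocln and Tjp1 were lower in all 4. The share of all genes with 1 direction in all 4 pairs was not computed. Without regard to the replicate numbers, 0 of the 8 members passed the limma test, in which 0.337% of 17204 genes tested were called. Gja1 had a log2 fold change of 1.06 ± 0.38 (SE, adjusted p = 0.394, unadjusted p = 0.0108), and was the only member with an unadjusted p under 0.05 by limma. By edgeR and by DESeq2 on the recovered reads, 0 of the 8 passed as well, where 0.256% and 1.55% of genes did. The exact permutation test of Gja1 gave p = 0.0571 (two-sided, smallest possible 0.0286), and no member had libraries that did not overlap between the sorts, where 6.77% of all genes did.

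Same-numbered Thy1hi and Thy1- libraries deviated together from their population means, and a limma fit of these 2 sorts that blocked on the number called 3 members, where 6.61% of all genes tested were called. Gja1 was 2.08-fold higher in Thy1hi (log2 fold change 1.06 ± 0.20 SE, adjusted p = 0.0114). Cldn4 was 1.62-fold lower (-0.70 ± 0.10, adjusted p = 0.00320), and Ocln was 1.40-fold lower (-0.49 ± 0.11, adjusted p = 0.0304). The median log2 fold change of the 8 members was -0.27, against -0.02 over all genes tested.

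**Figure D2:**
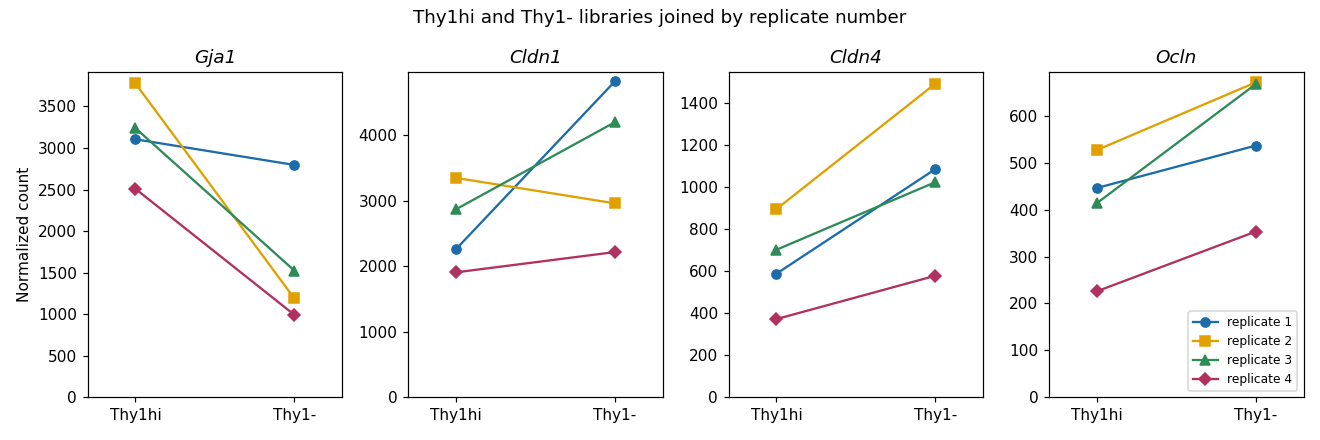
Normalized counts (linear axes from 0) of Gja1, Cldn1, Cldn4 and Ocln in Thy1hi and Thy1- libraries, with lines joining libraries of the same replicate number. The lines of Gja1 fall toward Thy1- in all 4 pairs and those of Cldn4 and Ocln rise in all 4, while Cldn1 rises in 3 and falls in 1.

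The pairs of Gja1 were unequal in size. The log2 difference, Thy1hi minus Thy1-, was 0.15 in replicate 1 and 1.66, 1.09 and 1.34 in replicates 2, 3 and 4. For Cldn4 the differences were -0.88, -0.74, -0.54 and -0.63, and for Ocln -0.27, -0.35, -0.69 and -0.64, all in 1 direction for both genes. Cldn1 had -1.09, 0.18, -0.55 and -0.22, and was not called with the block (adjusted p = 0.204), nor was Tjp1 (-0.20 ± 0.09, adjusted p = 0.258). Gjb2 and Gjb6 were higher in 2 pairs and lower in the other 2.

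Markers of keratinocyte layers and of other cell types moved with these genes. In the blocked fit, 5 of 7 basal keratinocyte genes were higher in Thy1hi, and 6 of 7 suprabasal and 6 of 6 granular genes were lower. The granular genes summed to between 1637 and 6189 normalized counts in Thy1hi and to between 5280 and 13199 in Thy1-, and the basal genes to between 187875 and 261309 in Thy1hi and to between 89525 and 157825 in Thy1-. Fibroblast genes were higher in Thy1hi for 4 of 5, with sums of 1932 and 969 in replicates 1 and 2 against 214 at most in Thy1-. Genes of the upper hair follicle and infundibulum were lower in Thy1hi for 4 of 4, with sums of 5824 to 7321 against 11234 to 11394 in Thy1-, Langerhans cell genes for 3 of 5 and sebaceous genes for 2 of 4. The part of these in the junction differences was not tested.

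Within populations, too, Cldn4 was highest where the granular genes were highest in 4 of the 5 sorts. The library with the highest mean log2 level of the 6 granular genes was HFSC replicate 2 (10.1), DETC b (10.2), YFP+ replicate 2 (10.2) and Thy1- replicate 2 (9.98), and each of these had the highest Cldn4 and the highest Ocln of its sort. The exception was Thy1hi, where replicate 4 had the highest granular level (8.51) and the lowest Cldn4 and Ocln. HFSC replicate 4, with the lowest granular level of all (6.98), had the lowest Cldn4 of all. Below the top library the order did not always hold. YFP+ replicate 1 had a higher granular level than replicate 3 (8.46 against 7.44) but lower Cldn4 and Ocln. DETC a likewise stood above DETC 1 (7.20 against 7.09) with lower Cldn4 and Ocln. How many of all genes match in this way was not counted.

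**Figure D3:**
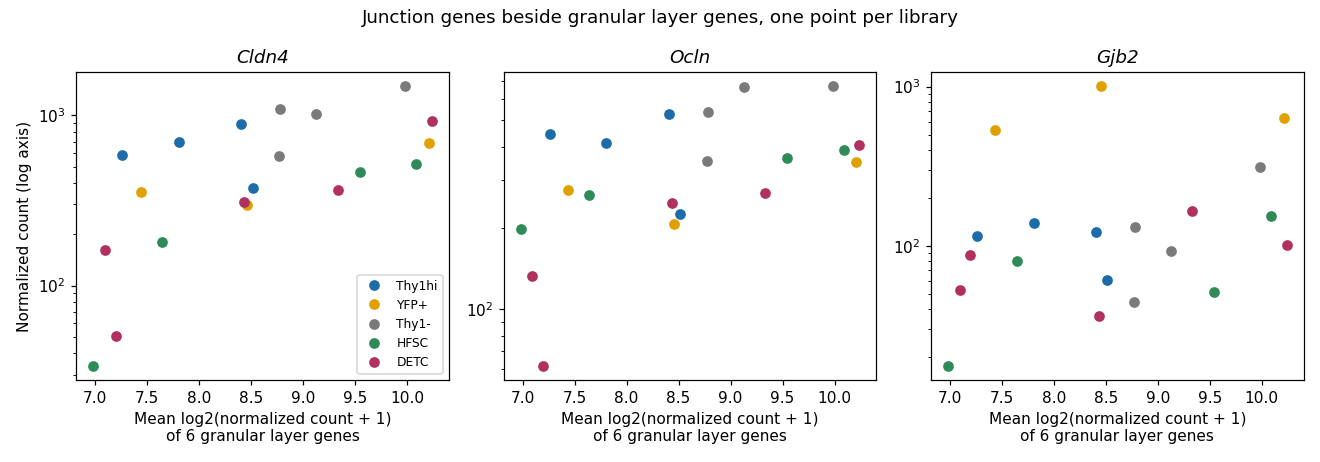
Normalized counts of Cldn4, Ocln and Gjb2 (log axes) against the mean log2(normalized count + 1) of 6 granular layer genes, one point per library. In HFSC, DETC, YFP+ and Thy1-, but not in Thy1hi, the library with the highest granular level also has the highest Cldn4 and Ocln of its sort. Gjb2 is at 535 or more in every YFP+ library.

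Other junction genes of a fixed list of 76 (75 in the table, 41 tested) were compared in the same way. None of the 41 was called between Thy1hi and Thy1- without the block, where 0.337% of all genes tested were. With the block, where 6.61% of all genes were called, 1 was higher in Thy1hi and 6 were lower. Among the 6 were Cldn8 (log2 fold change -2.12, adjusted p = 0.00531), Cldn23 (-1.61, adjusted p = 0.0303), the cingulin genes Cgnl1 (-1.56, adjusted p = 0.00122) and Cgn (-1.26, adjusted p = 0.00376), whose products bind tight junctions to the cytoskeleton, and Amotl2 (-0.66, adjusted p = 0.0428). The gene higher in Thy1hi was Amotl1, a scaffold gene (0.43, adjusted p = 0.0303). The median of the 41 was -0.18, against -0.02 over all genes tested.

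The second comparison sets the YFP+ cells against the Thy1hi cells sorted without the label. Gjb2 was 6.66-fold higher in YFP+ (log2 fold change 2.73 ± 0.63 SE, 95% interval 1.42 to 4.05) and Gjb6 was 3.97-fold higher (1.99 ± 0.81, 95% interval 0.30 to 3.67). All 3 YFP+ libraries lay above all 4 Thy1hi libraries for both genes, and 3 of the 8 members, Cldn1 being the third and lower in YFP+, did not overlap between the sorts, where 10.5% of all genes tested did not. In the limma fit over all 20 libraries neither passed (adjusted p = 0.142 for Gjb2 and 0.478 for Gjb6), and only 0.0116% of the genes tested were called at all. The exact permutation test gave p = 0.0571 for each, two-sided, the smallest value that 3 libraries against 4 allow.

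Whether Gjb2 passed rested on the model. It passed with DESeq2 (adjusted p = 0.00344), where 0.773% of genes were called, and in a limma fit of these 2 populations alone (adjusted p = 0.0158), where 0.0930% were called. By edgeR it did not pass, and over the settings tried the adjusted p ran from 0.00344 to 0.258. Leaving out single libraries kept the log2 fold change between 2.47 and 2.93, with adjusted p between 0.170 and 0.617.

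The higher level of both genes in YFP+ passed against HFSC and against DETC (where 38.1% of all genes were called), but not against Thy1-. In YFP+ against HFSC, where 11.6% of all genes were called, Gjb2 was 11.9-fold higher (log2 fold change 3.58 ± 0.63, adjusted p = 0.000701) and Gjb6 8.69-fold higher (3.12 ± 0.81, adjusted p = 0.0147), and Gja1 was 2.84-fold higher (adjusted p = 0.0193). In YFP+ against Thy1-, where 0.761% were called, 0 of the 8 members passed. Gjb2 was 6.09-fold higher there (adjusted p = 0.0550) and Gjb6 4.52-fold higher (adjusted p = 0.226). Gjb2, Cldn1 and Ocln did not overlap there, as 13.6% of all genes did not, and Gja1, Gjb2 and Gjb6 did not overlap between YFP+ and HFSC, where 22.3% of all genes did not. These comparisons share the 3 YFP+ libraries and are not independent of one another.

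The other 6 members did not pass between YFP+ and Thy1hi either. Gja1 differed by 0.08 on the log2 scale, with a 95% interval from -0.77 to 0.93. Cldn1 was lower in all 3 YFP+ libraries than in any Thy1hi library (-0.93 ± 0.46, adjusted p = 0.558). Gjb5, Cldn4, Ocln and Tjp1 overlapped between the 2 sorts, with adjusted p from 0.709 to 0.885. None of the 41 other junction genes was called, where 0.0116% of all genes tested were, and their median was -0.17, against -0.04 over all genes tested.

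Marker levels differed between these sorts as well. All 7 suprabasal and all 6 granular genes had positive log2 fold changes in YFP+ and all 5 fibroblast genes negative ones, and none passed the test. Sebaceous genes were positive for 4 of 4, with the largest positive median of the marker lists (log2 fold change 1.87, against 1.33 for suprabasal and 0.78 for granular genes), and hair follicle stem cell genes for 6 of 7, again with none called. The sebaceous genes summed to 5458, 1704 and 1282 in YFP+ replicates 1 to 3 and to between 896 and 1914 in Thy1hi. The granular genes summed to 6348, 16170.3 and 3028 in YFP+ replicates 1 to 3 and to between 1637 and 6189 in Thy1hi. Gjb2 was 1011, 639 and 535 in the same 3 YFP+ libraries and 139 at most in Thy1hi. What part the marker differences had in those of Gjb2 and Gjb6 was not tested. Fibroblast genes summed to between 44.6 and 216 in YFP+. Thy1 itself averaged 902 ± 568 (SD, n = 3) in YFP+ and 633 ± 113 (SD, n = 4) in Thy1hi.

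**Figure D4:**
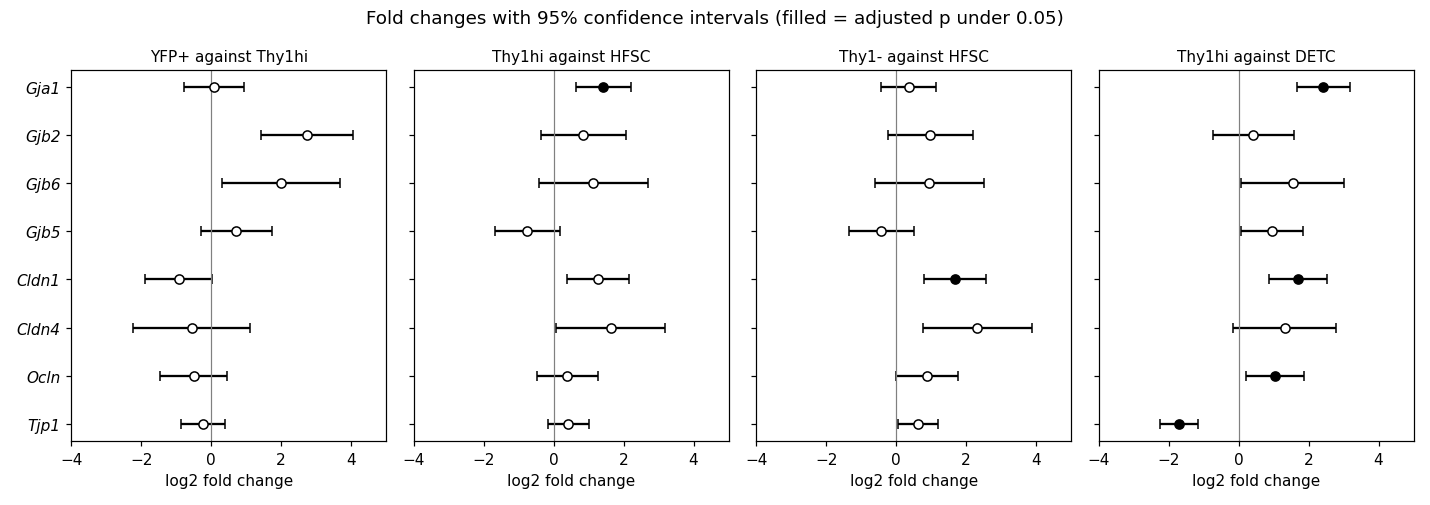
Log2 fold changes of the 8 junction genes with 95% confidence intervals in 4 comparisons, from the limma fit over 20 libraries. Filled points passed at an adjusted p under 0.05; Gjb2 and Gjb6 have the only intervals above 0 in YFP+ against Thy1hi and are unfilled there, and Tjp1 is the only member below 0 in Thy1hi against DETC.

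The third comparison sets the 2 interfollicular sorts against hair follicle stem cells. In Thy1hi against HFSC, 1 of the 8 members passed, where 13.4% of all genes tested did. Gja1 was 2.68-fold higher in Thy1hi (log2 fold change 1.42 ± 0.38, adjusted p = 0.0149), and Cldn1 was 2.41-fold higher (1.27 ± 0.42, adjusted p = 0.0515), just short of the threshold. For both genes the 4 Thy1hi libraries lay above the 4 HFSC libraries, and 19.3% of all genes tested did not overlap in either direction, with exact two-sided permutation p = 0.0286, the smallest that 4 against 4 allow. Leaving out HFSC replicate 4 ended the call of Gja1 (1.15, adjusted p = 0.0557) and took Cldn1 to 0.89 (adjusted p = 0.169).

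In Thy1- against HFSC, 6.08% of all genes passed, and among the members Cldn1 did, at 3.22-fold higher in Thy1- (1.69 ± 0.42, adjusted p = 0.0204). Cldn4 was 5.01-fold higher (2.32 ± 0.74, adjusted p = 0.0664) and Tjp1 1.54-fold higher (0.62 ± 0.28, adjusted p = 0.180), and all 4 Thy1- libraries lay above all HFSC libraries for these 3 genes, where 13.6% of all genes did not overlap. Without HFSC replicate 4 the call of Cldn1 was lost (1.31, adjusted p = 0.0609) and the log2 fold change of Cldn4 fell to 1.49. Without Thy1- replicate 1 or 3, Cldn1 did not pass either (adjusted p = 0.0834 and 0.0686).

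The median over the 8 members was 0.99 in Thy1hi against HFSC and 0.91 in Thy1- against HFSC, where all genes tested had medians of 0.02 and 0.04. Gjb5 was the only member with a negative value in both (-0.75 ± 0.45 and -0.42 ± 0.45, adjusted p = 0.281 and 0.584). The 2 comparisons share the HFSC libraries. HFSC also held RNA of upper-layer genes. The 7 suprabasal genes summed to a median of 37676 normalized counts in HFSC, 35277 in Thy1- and 14382 in Thy1hi. The 6 granular genes summed to between 2645 and 12438 in HFSC. The part of these in the junction differences was not tested. Of the 41 other junction genes, 3 were higher and 4 lower in Thy1hi than in HFSC, where 13.4% of all genes tested were called. In Thy1- 3 were higher and 1 lower than in HFSC, where 6.08% of all genes were called.

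Cgnl1, which encodes the cingulin-like protein paracingulin, was the largest of these. It ranged from 726 to 1458 normalized counts in HFSC against 15.5 to 172 in Thy1hi (log2 fold change -4.10 ± 0.65, adjusted p = 0.000207) and 68.1 to 419 in Thy1- (-2.54 ± 0.65, adjusted p = 0.0228). Cldn8 (-2.21, adjusted p = 0.00970), Ildr1, a gene of the corners where 3 cells meet (-1.74, adjusted p = 0.0304), and Patj (-1.23, adjusted p = 0.00784) were also lower in Thy1hi. The pannexin gene Panx1 was higher in Thy1hi (1.51, adjusted p = 0.000295) and in Thy1- (0.91, adjusted p = 0.0331). Cxadr was higher in Thy1- (0.90, adjusted p = 0.0445).

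The last comparisons set the keratinocyte sorts against dendritic epidermal T cells, which sit between keratinocytes in mouse epidermis. Tjp1 was 3.26-fold lower in Thy1hi than in DETC (log2 fold change -1.71 ± 0.26, adjusted p = 3.06e-05) and 4.37-fold lower in HFSC (-2.13 ± 0.26, adjusted p = 1.92e-06). It was also lower in Thy1- (-1.51, adjusted p = 0.000154) and in YFP+ (-1.93, adjusted p = 2.07e-05). Gja1, Cldn1 and Tjp1 did not overlap between Thy1hi and DETC, where 33.2% of all genes did not, and Gjb5 and Tjp1 did not overlap between HFSC and DETC, where 32.5% did not. The exact two-sided permutation p was 0.0159 for each, the smallest that these numbers of libraries allow. The direction and call of Tjp1 held against Thy1hi and HFSC when any single library was left out.

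In Thy1hi against DETC, 36.6% of all genes tested were called, and among the members Tjp1 was lower and 3 were higher. Gja1 was 5.36-fold higher in Thy1hi (2.42 ± 0.36, adjusted p = 1.79e-05), Cldn1 3.25-fold higher (1.70 ± 0.40, adjusted p = 0.00204) and Ocln 2.06-fold higher (1.04 ± 0.40, adjusted p = 0.0467). Ocln lost its call by edgeR and DESeq2 (adjusted p = 0.0908 and 0.0700), where 35.3% and 38% of genes were called, and without DETC a (0.65, adjusted p = 0.139), DETC 1 or Thy1hi replicate 1, 2 or 3. In Thy1- against DETC, where 34.1% of all genes were called, Gja1, Gjb5, Cldn1, Cldn4 and Ocln were higher in Thy1-, by 2.57-fold, 2.42-fold, 4.35-fold, 4.04-fold and 2.89-fold, with adjusted p from 0.000335 to 0.0317. Gja1, Gjb5, Cldn1 and Tjp1 did not overlap there, where 30.9% of all genes did not. In YFP+ against DETC, where 38.1% were called, the 4 connexins were all higher in YFP+, from 3.15-fold for Gjb5 to 11.5-fold for Gjb6, and these 4 and Tjp1 did not overlap, where 39.8% of all genes did not.

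In HFSC against DETC, 39.7% of all genes were called, and besides Tjp1 the members called were Gjb5, 3.24-fold higher in HFSC (1.70 ± 0.43, adjusted p = 0.00337), and Gja1, also higher in HFSC (1.0 ± 0.36, adjusted p = 0.0310). The call of Gja1 was lost without DETC a (0.71, adjusted p = 0.0985) and without HFSC replicate 1, 2 or 3, with adjusted p of 0.0629, 0.136 and 0.0501. The highest r of deviations between same-numbered libraries of these sorts was 0.33, against 0.37 among pairs of unlike number. In a blocked fit of the 3 replicate numbers that both sorts share, which leaves out HFSC replicate 4 and DETC a and b, 42.2% of all genes and 6 members were called. Cldn1 (0.57, adjusted p = 0.00224), Cldn4 (0.42, adjusted p = 0.0370) and Ocln (0.69, adjusted p = 0.00567) were then higher in HFSC, where Cldn4 had been at -0.31 over all libraries.

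**Figure D5:**
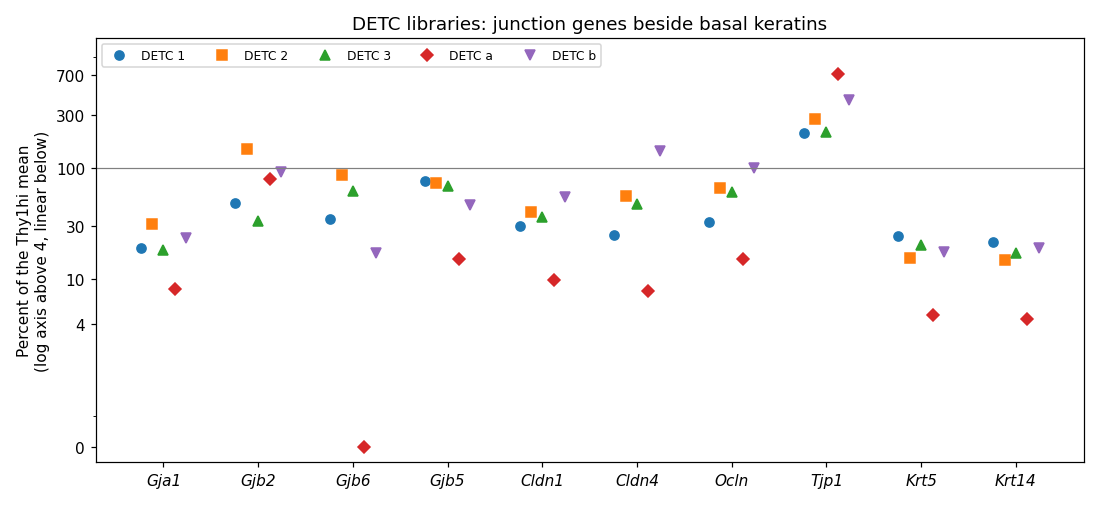
Level of the 8 junction genes and of the basal keratins Krt5 and Krt14 in each DETC library, as a percent of the gene's mean in Thy1hi (log axis above 4, linear below). DETC a is lowest for both keratins and for Gja1, Gjb5, Gjb6, Cldn1, Cldn4 and Ocln, and highest for Tjp1, which lies above 200% in all 5 libraries.

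The DETC library with the lowest levels of the 7 basal keratinocyte genes was also the lowest for 6 of the members. This was DETC a, with Krt5 at 4.83% and Krt14 at 4.41% of the Thy1hi mean, and there Gja1 was at 8.13%, Cldn1 at 9.99%, Cldn4 at 7.94%, Ocln at 15.3% and Gjb5 at 15.2%, each the lowest of the 5 libraries, and Gjb6 was at 0. In the other 4 libraries the medians of the 7 basal genes lay between 21.3 and 27.4%, with single genes from 15.1 to 50.8%, Gja1 lay between 18.4 and 31.4%, and Cldn1 reached 54.8% and Cldn4 145% in DETC b. Ocln was at 101% in DETC b, and the 6 granular genes stood at 199 to 689% there, of Thy1hi means that were the lowest of the keratinocyte sorts. Among these 4 libraries Krt14 was lowest in DETC 2 (15.1%), where Gja1 was highest. It was highest in DETC 1 (21.9%), where Cldn4 and Ocln were lowest but Gjb5 was highest (77.8%). Gjb2 was not lowest in DETC a, with DETC a at 80.3% and DETC 3 lowest at 33.3%. Nor were the granular genes Flg, Hrnr and Lce1a1, which were lowest in DETC 1.

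Tjp1 ran the other way. It was at 707% of the Thy1hi mean in DETC a, which also had the highest Ptprc (16469 normalized counts) and Trdc (8014), genes of the leukocyte surface and of the γδ T cell receptor. Of the other T cell genes examined, Cd2 and Cd3e were also highest in DETC a. Cd3d, Cd3g and Cd96 were not, with Cd3g at 5215 in DETC a and 6332 in DETC 3. DETC b was second for Tjp1 at 413% but lowest for Ptprc (5863), so that Tjp1 and Ptprc did not share one order. The part of keratinocyte RNA in the DETC values of the 8 members was not tested.

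Of the 41 other junction genes, 16 were higher and 4 lower in Thy1hi than in DETC, where 36.6% of all genes tested were called. In HFSC 18 were higher and 5 lower than in DETC, where 39.7% of all genes were called. Among those of largest change that were higher in Thy1hi were Amotl1 (log2 fold change 1.89, adjusted p = 1.38e-05), Cldn12 (1.72, adjusted p = 0.000206), Marveld3 (1.66, adjusted p = 0.00139) and the polarity gene Pard6g (1.57, adjusted p = 0.000473). Higher in HFSC were Cgnl1 (2.95, adjusted p = 0.000705), Mpdz (1.83, adjusted p = 1.73e-06) and Patj (1.70, adjusted p = 6.88e-05).

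Some genes of the fixed list, which also held pannexins, were higher in DETC, like Tjp1. Panx1, which encodes a channel protein that releases ATP, ranged from 671 to 1157 normalized counts in DETC against 68.0 to 127 in HFSC (log2 fold change -2.98 ± 0.24, adjusted p = 4.18e-09). Igsf5 (-3.40 in HFSC, adjusted p = 0.000633, and -2.14 in Thy1hi, adjusted p = 0.0205) and Jam2 (-2.04 in HFSC, adjusted p = 0.0170), both of the junctional adhesion molecule group, were also higher in DETC, with values that depend on the pseudocount at low levels of at most 17.8 and 45.3 normalized counts. Panx1 was thus lowest in HFSC, higher in Thy1- and Thy1hi, and highest in DETC.

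The genes whose levels ran most like each member over the 15 keratinocyte libraries were found by Pearson's r of log2(normalized count + 1). The libraries share depth, scaling and the 4 sorts, and no test is given. For Gjb6 they were Pla2g4e (r = 0.93), Gjb2 (0.91) and Mmp1b (0.88), and for Gjb2 Atp2a2 (0.96), Pla2g4e (0.93) and Stab1 (0.93), so that Pla2g4e stood in both lists. For Gja1 they were Pkm (0.95), Eno1 (0.94) and the integrin gene Itgb1 (0.94), and for Gjb5 Mrps21 (0.86), Prdx5 (0.85) and Pitpnb (0.85).

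The tight junction members had other genes beside them. Cldn1 ran most like Ahr (r = 0.97), Myo1e (0.96) and Gcnt4 (0.96), and Cldn4 like Pim1 (0.97), Kctd11 (0.97) and Rhov (0.97). Ocln ran most like Fbxo30 (0.96), Edn1 (0.93) and Epb41l5 (0.92), and Tjp1 like Gm37625 (0.95), Ino80 (0.94) and Gcnt4 (0.94). No member of the list appeared among the nearest 3 genes of another except Gjb2 for Gjb6.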

How the data were processed

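The deposited table gives, for 53380 Ensembl genes, a signal per library: gene counts that the authors scaled with DESeq2 size factors. Reads were aligned by the authors with STAR to mm10 and counted with featureCounts, whose versions are not given in the sources used here. Multiplying by the recovered scale gave whole reads for 100% of values in every library. In the Thy1- replicate 4 column, 3212 genes (none a member) were in another row order and were put back first. Genes of value 10 or more in at least 3 libraries (17204, all 8 members) were tested on log2(value + 1), pseudocount 1, with limma 3.58.1 (R 4.3.3), 20 libraries in 1 fit, two-sided, Benjamini-Hochberg over all genes, threshold 0.05. Fold changes are on that scale and understate low genes. Exact permutation tests used single members, 80 in all, and their p-values are unadjusted. The code was tested on simulated data. The members and lists were chosen with earlier results of these data known. All 8 members were named, with the 6 largest called junction genes per comparison (fewer are printed where values repeat), their family neighbours and the 3 genes most like each member. Junction genes called in the blocked fit of Thy1hi and Thy1- were also named, a choice made after their values were seen. Some genes that these rules select are counted but not reported by name here.

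Same-numbered libraries deviated together in Thy1hi and Thy1- (r from 0.29 to 0.72 in 4 pairs, against -0.65 to 0.51 in 12 pairs of unlike number). In HFSC and DETC their r was positive (0.17 to 0.33 in 3 pairs) but within the range of 17 pairs of unlike number (-0.32 to 0.37). They did not deviate together in the other 4 of the 6 comparisons examined for it. The labels do not say what a number marks. The design names 2 batches without assigning libraries to them, so batch values could not be computed. Alternatives used a pseudocount of 0.1 or 10, all detected genes, genes averaging 50 or more, other scalings, edgeR 4.0.16 and DESeq2 1.42.0 on the recovered reads, fits of only the 2 populations, the deposited row order and leaving out libraries. Exon lengths and positions came from GENCODE on the same build, and promoters from RefSeq, which held all 8 members. Strand use in the counting is not given, so reads of overlapping genes cannot be told apart.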

Additional observations from a re-analysis of the deposited data

How the results depend on the processing

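Of 1002 alternative values of single members, 934 kept direction and side of the threshold, 21 lost and 29 gained a call, and 18 changed sign. None of the 18 was called in the fit of 20 libraries, and 1 was called after the change (Cldn4 in HFSC against DETC). The number of members called rose in Thy1hi against HFSC from 1 to 2 with a pseudocount of 10, a mean of at least 50, the same total, DESeq2, without both replicates 4 and in fits of the 2 populations with or without the replicate block, and ran from 0 to 2 when single libraries were left out (0 without HFSC replicate 4). In Thy1- against HFSC it rose from 1 to 2 with the same total, with quantile normalization, without both replicates 4 and with the replicate block, and ran from 0 to 2 with libraries left out. In Thy1hi against Thy1- it rose from 0 to 3 with the block, in HFSC against DETC from 3 to 6 with the block, a fit that also leaves out HFSC replicate 4 and DETC a and b, and in YFP+ against Thy1hi from 0 to 1 with DESeq2 and in fits of the 2 populations, with or without the block (which leaves out Thy1hi replicate 4). The block changed no other count beyond 1.5 times. Numbers did not pair the samples in Thy1hi against HFSC, Thy1- against HFSC, Thy1hi against DETC or YFP+ against Thy1hi.

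Sign changed for Gjb6 in Thy1hi against Thy1- (-0.18 by edgeR, -0.22 by DESeq2, -0.25 without both replicates 4, and -0.42 to 0.76 with libraries left out), for Gja1 in YFP+ against Thy1hi (-0.022 with the block and without both replicates 4, and -0.10 to 0.27 with libraries left out), and in HFSC against DETC in the blocked fit without those 3 libraries for Cldn4 (0.42), Gjb2 (0.32) and Gjb6 (-0.42). With single libraries left out and no block, Cldn4 ran there from -0.87 to 0.53, Gjb2 from -0.88 to 0.14 and Gjb6 from -0.16 to 0.77, and Gjb2 in Thy1hi against Thy1- from -0.58 to 0.35. Signs in HFSC against DETC thus also changed with no block, for Cldn4 without HFSC replicate 4 or DETC b, Gjb2 without HFSC replicate 4 and Gjb6 without DETC a or HFSC replicate 2. Other causes were not tested. Scaling to the same total moved the median of all genes in Thy1- against HFSC from 0.04 to 0.25. Quantile normalization moved it in Thy1hi against DETC from 0.00 to 0.20, where 6 members were then called. Depth limits Gjb6, at 0 to 80 reads a library. With 3 libraries against 4 an exact test cannot go below 0.0571.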

Other observations

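The level of Gjb2 was set against that of Gja1 in each library. Gjb2, per kb of annotated exon, stood at 130, 106 and 53.2% of Gja1 in the 3 YFP+ libraries and at 10.4 to 18.3% in the 4 Thy1hi libraries. In Thy1- it stood at 20.0, 112, 26.0 and 19.0% in replicates 1 to 4, so that replicate 2 lay in the YFP+ range. That library had 314 normalized counts of Gjb2 and 39.3 of Gjb6, the highest of its sort, with Gja1 at 1191. It also had the highest granular genes of its sort (a sum of 13199). In HFSC the share ran from 11.4 to 30.1%, and in DETC from 26.6 to 146%, with the highest in DETC a, where Gja1 had the fewest reads (187). These values were noticed after the levels had been seen, carry no test, and the summed exon length of Gja1 raises all of them alike.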
